A study of Mus musculus with 4 samples.

Results

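The Ikaros family of zinc finger transcription factors was followed through thymic invariant natural killer T (iNKT) cells of C57BL/6 and Hivep3-/- mice. Its 5 genes, Ikzf1, Ikzf2, Ikzf3, Ikzf4 and Ikzf5, were taken by their symbols from the 31053 genes of the count matrices. iNKT cells are T cells with a nearly fixed receptor for lipids on CD1d. They were sorted with a PBS57-loaded CD1d tetramer from the thymi of untreated mice aged 8 to 9 weeks, as equal parts of CD44low and CD44high cells, so the sort set part of every cell share. Transcripts were counted by droplet 5' single-cell RNA-seq in 2 C57BL/6 and 2 Hivep3-/- libraries, each from 1 mouse. The Hivep3-/- mice, on the C57BL/6 background, carry a knockout of the gene for the zinc finger protein HIVEP3, and C57BL/6 mice served as wild-type controls. The questions asked of the family are at which stage of iNKT cell development each gene was high, and whether its level differed between genotypes.

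Ikaros family proteins bind DNA through zinc fingers near their amino terminus and pair with each other through fingers at their carboxy terminus. In lymphocytes they recruit chromatin remodelling and corepressor complexes such as NuRD, and they can both silence and sustain genes. Ikzf1 encodes Ikaros, which is required for lymphocyte development. Ikzf2 encodes Helios, known in regulatory T cells and in thymocytes that received strong antigen receptor signals. Ikzf3 encodes Aiolos, first known from B cells, Ikzf4 encodes Eos, a partner of Foxp3 in regulatory T cells, and Ikzf5 encodes Pegasus, the most distant member.

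The coding bases of a zinc finger were set side by side for the 5 members. Shown here are the 63 bases, 5' to 3' on the coding strand, of match 2 to the C2H2 finger pattern in each coding sequence, from the GENCODE vM21 transcripts of GRCm38 (mm10). Capitals mark bases identical to those of Ikzf1 at the same place.
Ikzf1: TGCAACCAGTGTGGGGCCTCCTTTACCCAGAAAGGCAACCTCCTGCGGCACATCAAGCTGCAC
Ikzf2: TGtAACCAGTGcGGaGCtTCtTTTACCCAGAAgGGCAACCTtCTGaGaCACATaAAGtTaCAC
Ikzf3: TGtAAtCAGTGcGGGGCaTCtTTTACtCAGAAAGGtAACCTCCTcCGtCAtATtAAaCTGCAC
Ikzf4: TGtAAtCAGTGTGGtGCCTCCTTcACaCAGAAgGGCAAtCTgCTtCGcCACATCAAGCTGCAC
Ikzf5: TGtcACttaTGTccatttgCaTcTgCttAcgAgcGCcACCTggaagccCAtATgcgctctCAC
They lie at chr11:11754024-11754086 (plus strand) for Ikzf1, chr1:69570581-69570643 (minus) for Ikzf2, chr11:98488940-98489002 (minus) for Ikzf3, chr10:128640229-128640291 (minus) for Ikzf4 and chr7:131392501-131392563 (minus) for Ikzf5. All are coding exon sequence. Ikzf2 and Ikzf3 share 51 of the 63 bases with Ikzf1 and Ikzf4 shares 53, and all of these fingers encode the same 21 residues. In match 2 of Ikzf5, 26 bases and 5 of 21 residues are the same, among them the cysteines and histidines that the pattern requires. Matches were taken by their order without an alignment, and the coding sequences held 5 to 7 of them. Match 2 of Ikzf5 may therefore not correspond to that of Ikzf1, and its identity is no measure of kinship. Over 34 annotated transcripts, the longest stretch that transcripts of a pair of members have in common ran from 15 bases for Ikzf1 and Ikzf5 to 32 bases for Ikzf2 and Ikzf4.

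The genes themselves span chr11:11685003-11772926 on the plus strand (Ikzf1), chr1:69531214-69687245 on the minus strand (Ikzf2), chr11:98464902-98546031 on the minus strand (Ikzf3), chr10:128630843-128645991 on the minus strand (Ikzf4) and chr7:131388652-131410521 on the minus strand (Ikzf5). Other annotated genes of the matrices that overlap them held few unique molecular identifiers (UMIs, the tags that mark single RNA molecules), from 0 to 47 over all cells, except Pstk, which overlaps Ikzf5 on the opposite strand with 4374 UMIs. Promoters from RefSeq (GRCm38.p6) were matched for Ikzf1 and Ikzf5. The letters GGGAA, the core bound by Ikaros family fingers, occurred on either strand in 62.7% of all 32851 promoters, and in 1 of the 2 promoters of Ikzf1 and the promoter of Ikzf5.

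The 4 libraries held 31381738 to 48291764 UMIs, and 3651 to 7231 cells per library were kept, with a median depth per cell of 4596 and 5268 UMIs in C57BL/6 (replicates 1 and 2, as always in this order) against 6833 and 6491 UMIs in Hivep3-/-. Pairs of libraries shared 26 to 58 cell barcodes. Sex-linked transcripts set C57BL/6 replicate 1 apart from the other 3 libraries. It held 14609 UMIs of Xist and 0 of Y-linked genes, against 3 to 25 and 3568 to 4879 in the others. By these transcripts C57BL/6 replicate 1 was female and the other mice male, so sex was not balanced between genotypes. The genotype differences of Ikzf2, and that of Ikzf3 in stage 0-like cells, are therefore also given without C57BL/6 replicate 1. Cells were grouped into 16 clusters, with the 5 family genes left out of the genes used, and named from marker genes as stage 0-like (1241 cells, the precursors), cycling-like (2124), iNKT2-like (2941), iNKT17-like (613) and iNKT1-like (9741). A further 2987 cells in clusters 3, 6 and 13 had no name. The 12 stage 0 markers summed to 6633 to 8597 CPM in the stage 0-like cells of the libraries and to 376 to 643 CPM in iNKT1-like cells. Counts were summed per library and class, and levels are given as counts per 1000000 UMIs of the same sum (CPM), with the class sums running from 735570 to 18921064 UMIs. Hivep3 itself was counted in both genotypes, at 38.5 and 36.4 CPM over all C57BL/6 cells and 101 and 68.0 CPM over all Hivep3-/- cells. Its log2 difference was 1.08 (SE 0.193) and missed the threshold of 0.05, with 0.0743 as its adjusted p (edgeR, quasi-likelihood F test, Benjamini-Hochberg). These sums over all cells mix the level of Hivep3 within cells with the shares of classes, which differed between the libraries. Nothing read here tells which exons the knockout removes, and the level of the transcript is no test of the labels.

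**Figure D1:**
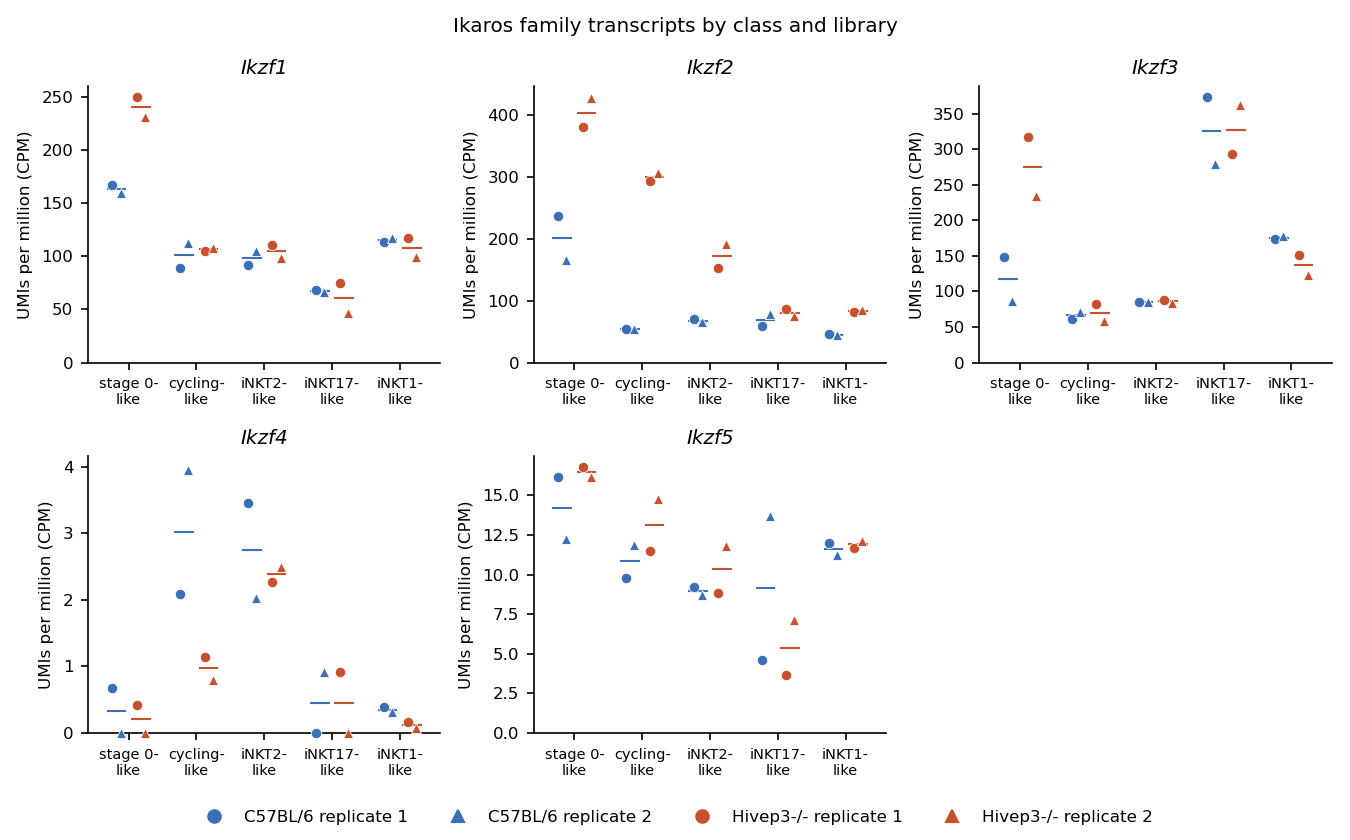
Levels of the 5 Ikaros family genes (y axes, CPM; each gene has its own scale) in the 5 classes of iNKT cells (x axes). Points are the 4 libraries and lines the mean of the 2 libraries of a genotype; Ikzf2 in cycling-like cells sits at 54.9 and 54.6 CPM in C57BL/6 and at 293 and 305 CPM in Hivep3-/-.

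Ikzf2, which encodes Helios, rose in Hivep3-/- cycling-like and iNKT2-like cells, and over all cells. In C57BL/6 mice it was highest in the stage 0-like precursors and low in cycling-like and iNKT1-like cells. In Hivep3-/- mice the cycling-like cells stood above the mean of the other classes. In iNKT17-like cells the genotypes overlapped.

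In C57BL/6 replicates 1 and 2, Ikzf2 was at 237 and 166 CPM in stage 0-like cells, 70.2 and 65.1 CPM in iNKT2-like, 59.7 and 77.8 CPM in iNKT17-like, 54.9 and 54.6 CPM in cycling-like, and 45.6 and 43.8 CPM in iNKT1-like cells. Both precursor values lay above every value of the other classes. Set against the mean of the other 4 classes in a model over all 20 sums with mouse as a block, the stage 0-like level was higher by a log2 difference of 1.52 (SE 0.107, adjusted p 2.93e-11 in edgeR). Class differences were common: in that comparison 37.4% of the 11147 genes tested were called at an adjusted p under 0.05, as were 3 of the 5 members. The cycling-like and iNKT1-like levels of Ikzf2 were lower than the mean of the other classes, by -0.54 (SE 0.0933, adjusted p 3.75e-05) and -0.80 (SE 0.0950, adjusted p 1.44e-07), against 49.6% and 54.6% of all genes called there and 3 members each. Among neighbours in the order of levels, iNKT2-like and iNKT17-like cells did not differ beyond their spread (0.12, SE 0.151), nor did cycling-like and iNKT17-like cells (-0.30, adjusted p 0.133), nor cycling-like and iNKT1-like cells (0.21, adjusted p 0.105). Cycling-like cells were below iNKT2-like cells (-0.41, adjusted p 0.00379, but -0.36 and 0.100 without C57BL/6 replicate 1), and iNKT2-like cells were above iNKT1-like cells (0.62, adjusted p 5.95e-05). These pairs of classes called 19.7%, 41.2%, 66.4%, 41.3% and 48.3% of all genes, in the order given.

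In the cycling-like cells of Hivep3-/- replicates 1 and 2, Ikzf2 was at 293 and 305 CPM, against 54.9 and 54.6 CPM in C57BL/6. Both knockout values lay far above both wild-type values, and the libraries of a genotype nearly coincided. The mean rose from 54.7 ± 0.184 CPM to 299 ± 8.80 CPM (SD, n = 2), a log2 difference of 2.29 (SE 0.133, adjusted p 0.000199 in edgeR). In this comparison 4.47% of 10216 genes were called, and Ikzf2 was 1 of the 5 members tested. It was called in all of 15 alternative settings, with values between 1.93 and 2.45, also without C57BL/6 replicate 1.

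iNKT2-like cells held 70.2 and 65.1 CPM of Ikzf2 in C57BL/6 and 153 and 192 CPM in Hivep3-/-. The genotypes did not overlap there either. The log2 difference was 1.27 (SE 0.166, adjusted p 0.0310), with Ikzf2 the member called of 5 tested and 0.443% of 9705 genes called. The call was lost in 3 of 15 alternatives, where the difference was 1.16 to 1.29: when genes under a mean of 20 CPM were dropped (adjusted p 0.0953), without correction between libraries (0.0762), and with a looser cell filter (0.0525). It was 1.31 (adjusted p 0.00222) without C57BL/6 replicate 1.

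Stage 0-like cells held 237 and 166 CPM of Ikzf2 in C57BL/6 and 380 and 427 CPM in Hivep3-/-. The knockout libraries were again above both controls, yet the difference of 0.86 (SE 0.187) missed the threshold with an adjusted p of 0.0911, where 0.353% of 8785 genes were called. None of the 4 members tested was called in these cells by edgeR, although 3 had an unadjusted p under 0.05 and DESeq2 called 1, Ikzf3. Without Hivep3-/- replicate 1 the difference of Ikzf2 was 0.99 and was called, as it was without Hivep3-/- replicate 2, at 0.72. Without C57BL/6 replicate 1 it was 1.14 with an adjusted p of 0.102.

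In iNKT1-like cells, Ikzf2 was at 45.6 and 43.8 CPM in C57BL/6 and 80.8 and 85.3 CPM in Hivep3-/-. These groups stood apart with little spread, but the difference of 0.82 (SE 0.141) had an adjusted p of 0.0602, with 0.731% of 10664 genes called. Of the 4 members tested here edgeR called 0, with 2 at an unadjusted p under 0.05, while DESeq2 called Ikzf2 (adjusted p 0.00255). Leaving out Hivep3-/- replicate 1 gave 0.93. A replicate block, for numbers that did not pair the mice, gave 0.82 and an adjusted p of 0.0163 in edgeR. The difference was 0.86 without C57BL/6 replicate 1, with an adjusted p of 0.128. The class was made up differently by genotype, with cluster 0 holding 63.3% and 55.6% of it in C57BL/6 and 39.5% and 39.2% in Hivep3-/-, and cluster 2 holding 16.4% and 14.9% against 28.6% and 34.5%.

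iNKT17-like cells held 59.7 and 77.8 CPM of Ikzf2 in C57BL/6 and 85.8 and 74.8 CPM in Hivep3-/-. The libraries of the genotypes overlapped. The difference was 0.16 (SE 0.220, adjusted p 0.978), and -0.04 without C57BL/6 replicate 1. In these cells edgeR called 0.105% of 7609 genes and 0 of the 3 members tested, 0 of them with an unadjusted p under 0.05, and DESeq2 called 0.

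Over all kept cells, the libraries held 68.0 and 62.2 CPM of Ikzf2 in C57BL/6 and 161 and 211 CPM in Hivep3-/-. The log2 difference was 1.43 (SE 0.177, adjusted p 0.0273), where 0.765% of 12291 genes and 1 of the 5 members were called. Without C57BL/6 replicate 1 it was 1.49 with an adjusted p of 0.131, and without C57BL/6 replicate 2 it was 1.37 with an adjusted p of 0.0818. A sum over all cells mixes the level within cells with the shares of classes, which differed between the libraries: stage 0-like cells made up 4.81% and 3.23% of the C57BL/6 and 8.05% and 9.72% of the Hivep3-/- libraries.

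**Figure D2:**
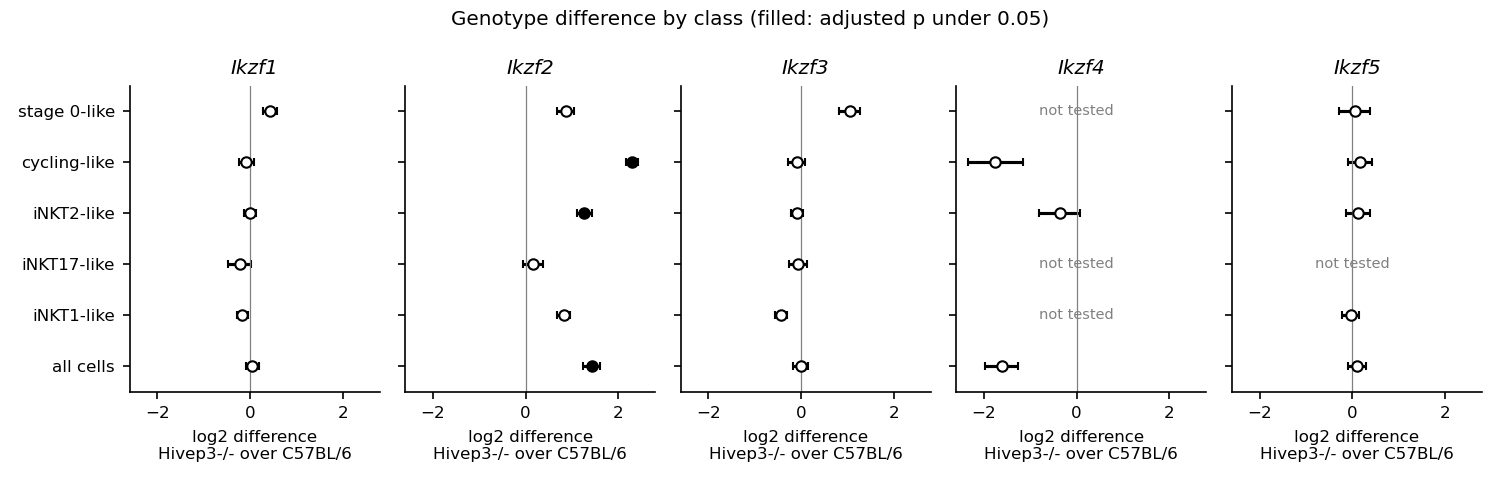
Log2 difference of Hivep3-/- over C57BL/6 for each family gene (x axes, log2 scale) by class and over all cells (y axis), with bars for the standard error of the fit over 2 libraries per genotype. Filled points passed an adjusted p of 0.05: Ikzf2 in cycling-like cells (2.29), in iNKT2-like cells (1.27) and over all cells (1.43); "not tested" marks sums with too few counts.

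Whether the genotype difference of Ikzf2 itself differed between classes was tested against iNKT1-like cells in the model over 20 sums. It was larger in cycling-like cells by 1.44 (SE 0.149, adjusted p 4.97e-07 in edgeR), in a comparison that called 11.3% of genes, and Ikzf2 alone among the members. The range over 10 alternatives was 1.19 to 1.61, each called. In stage 0-like cells the difference departed from that in iNKT1-like cells by 0.01 (SE 0.161), and in iNKT2-like cells by 0.40 (SE 0.150, adjusted p 0.167, with 2.9% of genes called). In iNKT17-like cells it was smaller by -0.66 (SE 0.210), which missed the threshold with an adjusted p of 0.217 and 0.493% of genes called. Within Hivep3-/- mice, the cycling-like level of Ikzf2 stood 0.97 above the mean of the other 4 classes (SE 0.0803, adjusted p 4.77e-10, with 43% of all genes called) and was not distinguished from the stage 0-like level (0.22 higher in stage 0-like cells, SE 0.0998, adjusted p 0.101, with 34.9% of genes called). That last difference was called in 3 of 10 alternatives, at 0.43 without TMM scaling, 0.29 at clustering resolution 0.4 and 0.70 without correction between libraries (adjusted p 2.14e-05).

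Single clusters, a division added after the data were seen, resolved the Ikzf2 difference further. The 3 cycling-like clusters with enough cells, which held genes of DNA replication (cluster 5, with Cdc6 and Mcm3), of mitosis (cluster 11, with Ccnb2 and Cenpa) and histone genes (cluster 12, with Hist1h2ap), each rose, by 2.50 (SE 0.148), 2.48 (SE 0.151) and 2.34 (SE 0.216). Ikzf2 was called in these and in clusters 1, 2, 4, 6 and 8, which is 8 of the 13 clusters fitted, and the share of all genes called was 0.443%, 0.352%, 0.519%, 4.06%, 3.16%, 0.783%, 2.84% and 3.4% in clusters 1, 2, 4, 5, 6, 8, 11 and 12. In clusters 0, 3, 7, 9 and 10, where it was not called, that share was 0.408%, 0.269%, 0.368%, 0.105% and 0%. Among the 4 iNKT1-like clusters fitted, it rose in cluster 2, led by Ccl5 and Gzma (37.1 and 25.9 CPM against 88.8 and 75.6 CPM), and in cluster 4, led by Gzmb (23.5 and 28.2 CPM against 61.3 and 77.1 CPM). In clusters 0 and 7, the latter with Ifit3 and other interferon-induced genes in the lead, the difference was 0.69 in each and was not called (adjusted p 0.218 and 0.320). Cluster 1 is the whole iNKT2-like class and cluster 9 the whole iNKT17-like class, so their fits repeat those given above. Some sums held few cells, with 34 of Hivep3-/- replicate 1 in cluster 11 and 34 of C57BL/6 replicate 2 in cluster 6.

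The cluster fits were repeated with each library left out. Without C57BL/6 replicate 1, Ikzf2 was still called in clusters 1, 4, 5, 6, 8, 11 and 12 but not in cluster 2 (1.60, adjusted p 0.226), and it was again uncalled in clusters 0, 3, 7, 9 and 10. Cluster 2 also lost its call without C57BL/6 replicate 2 (1.09, adjusted p 0.228), and cluster 4 without Hivep3-/- replicate 2 (1.08, adjusted p 0.109). In cluster 12, where 38 cells stood for Hivep3-/- replicate 1, the call was lost without Hivep3-/- replicate 1 (2.14, adjusted p 0.557) or 2 (2.56, adjusted p 0.398).

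Among the unnamed clusters, 1 had a high Ikzf2 in the knockout. Cluster 6, led by Tnni1, Htra3 and Klrb1a, made up 2.84% and 0.931% of the C57BL/6 libraries and 6.00% and 8.86% of the Hivep3-/- libraries. Its cells held 97.3 and 90.6 CPM of Ikzf2 in C57BL/6 and 421 and 462 CPM in Hivep3-/-. No library of one genotype came near the other. The log2 difference was 2.12 (SE 0.170, adjusted p 7.74e-05), in a cluster where 3.16% of 9146 genes were called.

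The stage 0-like class joined a pair of clusters with distinct levels. Cluster 10, led by Cd24a, Cldn10 and Itm2a, held 556 and 472 CPM of Ikzf2 in C57BL/6 and 754 and 804 CPM in Hivep3-/-. Cluster 8, with Nrgn, Siae and Lef1 among its leading genes, held 121 and 103 CPM against 258 and 319 CPM. In cluster 8 Ikzf2 rose by 1.24 (SE 0.192, adjusted p 0.0126, with 0.783% of 8173 genes called). In cluster 10 the difference was 0.48 (SE 0.198, adjusted p 0.999), and edgeR called 0 of 5771 genes there, with 267 at an unadjusted p under 0.05. DESeq2 was not run on single clusters. Cells of cluster 10 were shallow, with a median of 2688 UMIs, and its sums held few cells (183, 48, 164 and 186 in the 4 libraries).

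**Figure D3:**
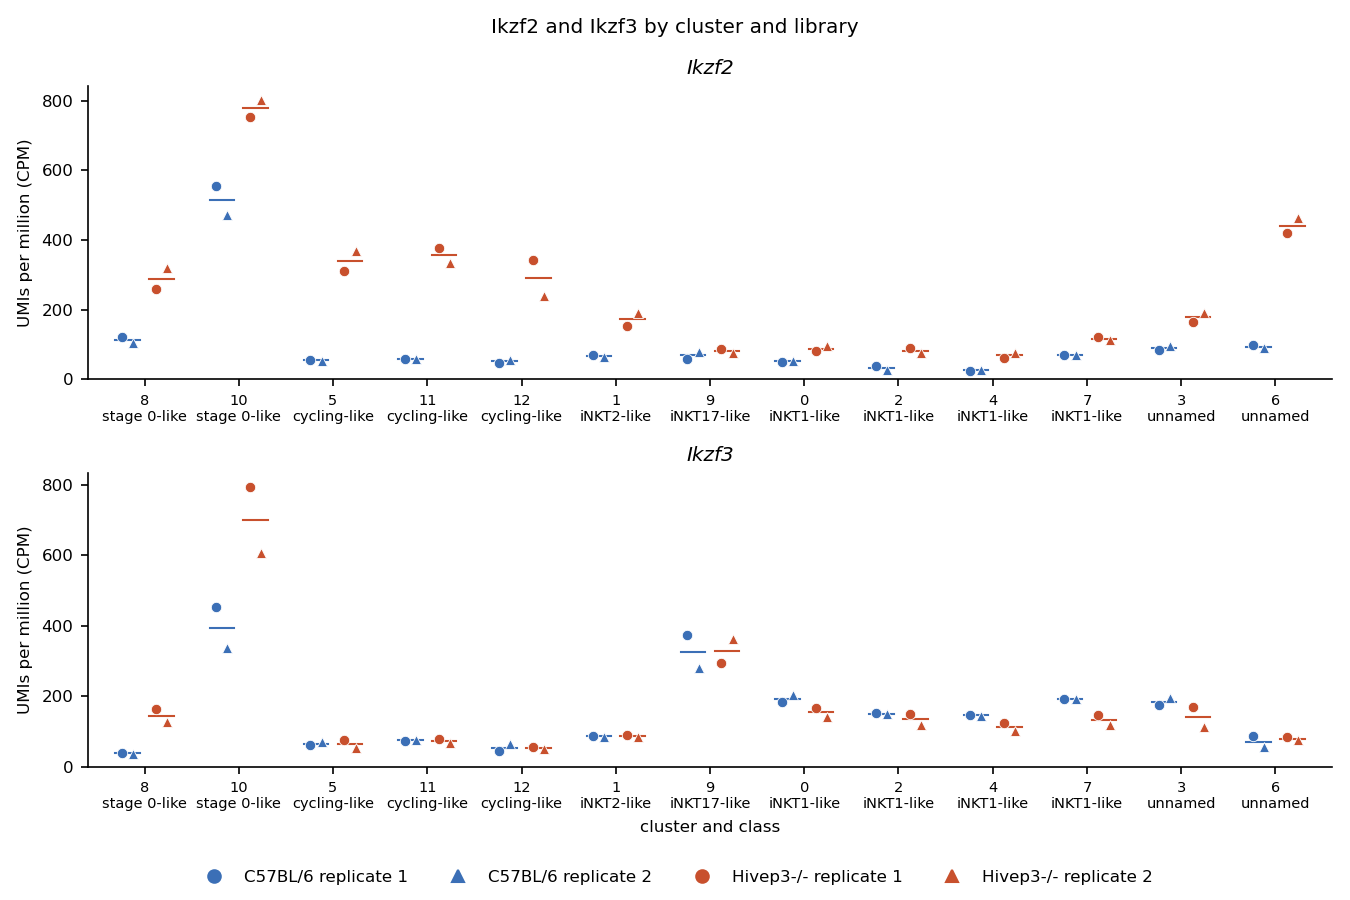
Levels of Ikzf2 (top) and Ikzf3 (bottom) in CPM (y axes) in the 13 clusters with at least 30 cells in every library (x axes). Points are libraries and lines the mean of the 2 libraries of a genotype. Ikzf2 is high in cluster 10 in both genotypes, where it lies above cluster 6, and in Hivep3-/- cells of clusters 5, 6, 11 and 12. Ikzf3 is high in cluster 9 in both genotypes and in cluster 10.

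The share of cells with at least 1 Ikzf2 UMI showed how widely the transcript was spread. Every cell was first thinned to 2000 UMIs, since Hivep3-/- cells were deeper, and shallower cells were left out. In cycling-like cells the share was 9.07% and 8.79% in C57BL/6 against 38.9% and 42.2% in Hivep3-/-. In stage 0-like cells it was 25.9% and 22.4% against 51.4% and 53.3%, in iNKT2-like cells 11.9% and 10.9% against 24.8% and 26.6%, and in iNKT1-like cells 8.33% and 8.42% against 12.6% and 13.9%. In none of these classes did the genotypes overlap. iNKT17-like cells stood close together, at 11.5% and 15.1% against 16.7% and 15.6%. The exact permutation test over libraries gave p = 0.333 in each of the 5 classes, two-sided, the smallest value that 2 against 2 allows. Cells left out as too shallow were most numerous in the stage 0-like class, with 93, 11, 14 and 43 cells of the 4 libraries, and in iNKT1-like cells, with 246, 52, 38 and 21. In the stage 0-like class 93, 11, 13 and 43 of them were cells of cluster 10. At 1000 UMIs, where no stage 0-like cell was left out, the shares of that class were 21.1% ± 0.148 and 36.1% ± 1.71 (SD, n = 2), a gap of 15.0 points in place of 28.2 points.

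Unthinned, the Ikzf2 shares were 40.0% ± 4.41 against 81.5% ± 3.89 in cycling-like cells, where C57BL/6 cells had median depths of 12548 and 16035 UMIs and Hivep3-/- cells of 13122 and 13846 UMIs. As a measure of free RNA, 24 B cell-like cells with a median of 2590 UMIs, a type with little or no Helios, held Ikzf2 in 0 of 24 cells unthinned. They formed a cluster of their own only when cells were clustered without correction between libraries. With 3 cells as the limit that a count of 0 allows, the share could be up to 12.5%. Of the 17 deep enough at 2000 UMIs, 0 held it, which allows up to 17.6%, or 19.5% as the upper bound of the exact 95% binomial interval. The C57BL/6 shares of iNKT2-like and cycling-like cells and the shares of both genotypes in iNKT17-like and iNKT1-like cells lay under both limits, so their height over background could not be shown. The Hivep3-/- shares of cycling-like and iNKT2-like cells and all shares of stage 0-like cells lay above both. These limits cover counting error only.

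**Figure D4:**
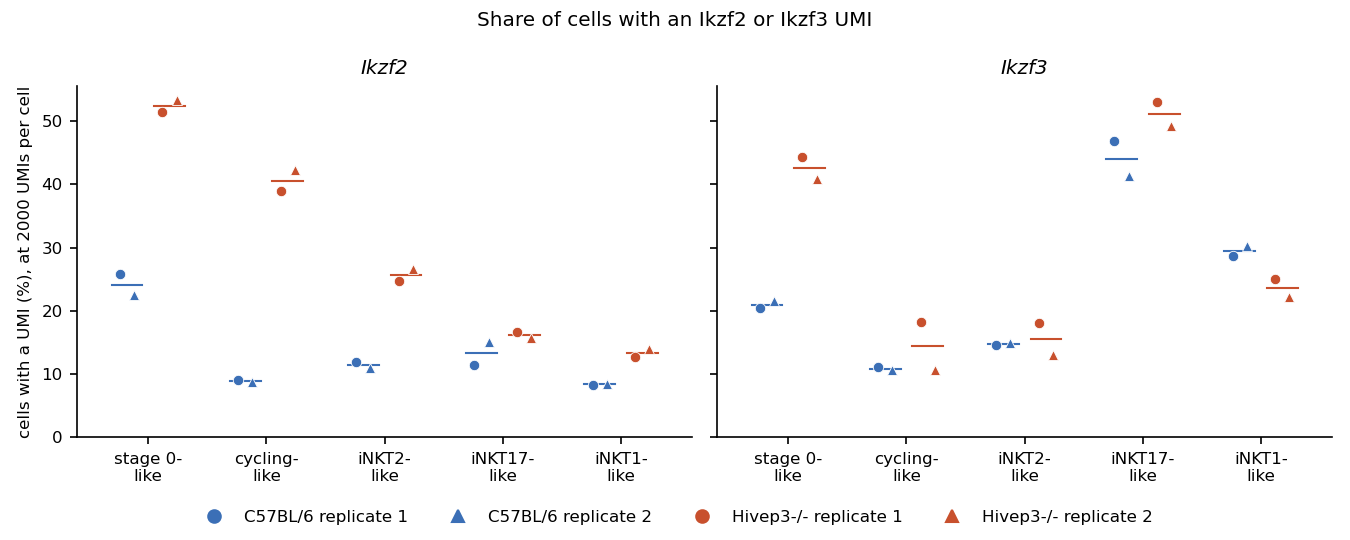
Share of cells with at least 1 UMI of Ikzf2 (left) or Ikzf3 (right), in percent of the cells of a class after thinning to 2000 UMIs per cell (y axis), by class (x axis). Points are libraries and lines the mean of 2; for Ikzf2 the Hivep3-/- points lie above the C57BL/6 points in every class, with the widest gap in cycling-like cells.

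Markers of other cells that use Helios or lie near iNKT precursors are given beside these values. The regulatory T cell list of 7 genes, measured as a sum, ran from 50.0 to 50.7 CPM in C57BL/6 and 46.4 to 67.0 CPM in Hivep3-/- cycling-like cells, with 0 of its 3 genes tested called there, Lrrc32 at 0 and Foxp3 at 0 to 1 UMI per library. In iNKT2-like cells it ran from 83.0 to 90.8 CPM and from 86.0 to 96.6 CPM, with Foxp3 at 0 to 2 UMIs. In stage 0-like cells the same list was higher in Hivep3-/-, at 67.6 to 69.3 CPM against 39.4 to 59.8 CPM. The 1 gene of it tested there was not called. In iNKT1-like cells the list was lower in Hivep3-/-, at 175 to 185 CPM against 192 to 201 CPM. In iNKT17-like cells the genotypes overlapped. The list of 9 double positive thymocyte genes was higher in Hivep3-/- libraries, at 182 to 194 CPM against 124 to 130 CPM in cycling-like cells, 259 to 260 CPM against 158 to 173 CPM in iNKT2-like, 325 to 336 CPM against 264 to 267 CPM in stage 0-like, and 97.9 to 110 CPM against 48.0 to 56.0 CPM in iNKT1-like cells. Aqp11, a gene of this list, was called in iNKT2-like cells, where it was lower in Hivep3-/- (1.01 and 2.50 CPM against 10.5 and 14.2 CPM), and Cd8a and Tcf7 were called as higher in iNKT1-like cells. Tcf7, a factor that iNKT cells also use, was at 85.1 and 75.7 CPM there in Hivep3-/- and at 44.8 and 39.8 CPM in C57BL/6. Most of the sum was Tcf7 in iNKT2-like, cycling-like and iNKT1-like cells, and Rag2 was at 0 in all libraries in iNKT2-like and iNKT1-like cells and at 13, 0, 0 and 1 UMIs in cycling-like cells. The 12 stage 0 markers, too, summed to 2446 and 2159 CPM in Hivep3-/- and 1271 and 1081 CPM in C57BL/6 cycling-like cells. In the same cells the 25 iNKT1 markers summed to 4797 and 2610 CPM in Hivep3-/- and 1097 and 1297 CPM in C57BL/6, and the 10 iNKT2 markers to 1009 and 902 CPM against 1750 and 1670 CPM. Cluster 14, with a high sum of iNKT1 markers, made up 17.9% and 5.43% of the cycling-like cells in Hivep3-/- and 1.81% and 3.62% in C57BL/6. The thymic epithelium list of 5 genes summed to 3.13 to 3.62 CPM in C57BL/6 and 21.8 to 25.7 CPM in Hivep3-/- cycling-like cells. Its other 4 genes, Psmb11, Foxn1, Krt5 and Krt8, were at 0 there, and Epcam, an adhesion molecule, passed the test as higher in Hivep3-/-. The myeloid list of 6 genes ran from 123 to 124 CPM and from 140 to 145 CPM in the same cells, with Tyrobp, a signalling adaptor also used by natural killer cells, called as higher in Hivep3-/- and Adgre1 at 0. It was 144 to 145 CPM against 108 to 114 CPM in iNKT2-like cells, with Lyz2 at 0, and 229 to 237 CPM against 153 to 158 CPM in iNKT1-like cells, with Tyrobp called as higher. The gamma delta T cell list of 6 genes was higher in Hivep3-/- iNKT2-like cells, at 204 to 241 CPM against 120 to 136 CPM, with 0 of 2 genes called and Trdc, the constant gene of the delta chain, at 0 to 2 UMIs per library. The B cell list of 9 genes overlapped between genotypes in cycling-like cells, at 71.8 to 72.4 CPM in C57BL/6 and 57.2 to 85.8 CPM in Hivep3-/-. There Cd79b was called as higher and Cd74 as lower in Hivep3-/-, with Pax5, Cd79a and Ms4a1 among the genes at 0. It was lower in Hivep3-/- iNKT2-like cells, at 84.9 to 86.3 CPM against 113 to 131 CPM. The same held in stage 0-like cells, at 13.9 to 17.4 CPM against 21.5 to 25.8 CPM. In iNKT17-like and iNKT1-like cells the genotypes overlapped. The part of these genes' cells in the Ikzf2 difference was not tested.

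Ikzf3, the gene for Aiolos, was highest in the iNKT17-like cells of C57BL/6 mice. Between genotypes it was called in no class, but it rose in cluster 8 of the stage 0-like cells. In C57BL/6 replicates 1 and 2 it was at 373 and 279 CPM in iNKT17-like cells, 173 and 179 CPM in iNKT1-like, 149 and 87.0 CPM in stage 0-like, 85.8 and 85.6 CPM in iNKT2-like, and 62.0 and 71.4 CPM in cycling-like cells. No classes overlapped, but the stage 0-like libraries were wide apart, the lower next to the iNKT2-like level. The iNKT17-like level was above the other 4 classes' mean by 1.63 (SE 0.124, adjusted p 2.18e-10 in edgeR), where 25.7% of all genes and 2 of the 5 members were called. The iNKT1-like level was higher by 0.64 (SE 0.106, adjusted p 1.60e-05), and the cycling-like and iNKT2-like levels were lower by -1.22 (SE 0.123, adjusted p 1.13e-08) and -0.63 (SE 0.119, adjusted p 0.000284), the last among 25.6% of genes and 2 members called. Without C57BL/6 replicate 1 the iNKT2-like value was -0.47 and was not called. The stage 0-like level was lower by -0.42 (SE 0.155, adjusted p 0.0340), a call that was lost in 4 of 10 alternatives, with -0.11 without TMM scaling and -0.19 without C57BL/6 replicate 2. It did not differ from the iNKT2-like level beyond the spread (0.17, SE 0.180, with 36.3% of genes called).

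In stage 0-like cells of Hivep3-/- mice, Ikzf3 was at 318 and 234 CPM, against 149 and 87.0 CPM in C57BL/6. The knockout values were above both controls, but the replicates of each genotype were wide apart. The means were 276 ± 59.4 and 118 ± 44.0 CPM (SD, n = 2), and the log2 difference of 1.05 (SE 0.227) missed the threshold with an adjusted p of 0.0904. It was called in 6 of 15 alternatives, with DESeq2 (1.06, adjusted p 0.0412), with a replicate block (1.09, adjusted p 0.00943), without a filter on low counts, and without C57BL/6 replicate 1 (1.51, adjusted p 0.0313), Hivep3-/- replicate 1 (0.87, adjusted p 0.0185) or Hivep3-/- replicate 2 (1.21, adjusted p 2.06e-05). Without C57BL/6 replicate 2 it was 0.77 and was not called. The replicate numbers behind the block did not pair the mice.

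The clusters of the class were also fitted singly. In cluster 8, Ikzf3 was at 39.4 and 36.02 CPM in C57BL/6 and 163 and 127 CPM in Hivep3-/-. The genotypes were well separated there, and Ikzf3 rose by 1.80 (SE 0.214, adjusted p 0.00236), with 1.67 to 1.92 and a call whichever library was left out (1.86 without C57BL/6 replicate 1). In cluster 10 it was at 452 and 336 CPM against 795 and 606 CPM, a difference of 0.68 (SE 0.216, adjusted p 0.999), which was called only without Hivep3-/- replicate 2 (0.82, adjusted p 0.0448). At 2000 UMIs per cell the share of stage 0-like cells with an Ikzf3 UMI was 20.4% and 21.5% in C57BL/6 and 44.4% and 40.9% in Hivep3-/- (exact permutation p = 0.333, the smallest possible). At 1000 UMIs, where no stage 0-like cell was left out, the mean shares were 19.5% in C57BL/6 and 30.4% in Hivep3-/-. The gap was 10.9 points there, in place of 21.7 points at 2000 UMIs. B cell-like cells, in which Aiolos is known, held Ikzf3 in 7 of 17 cells at 2000 UMIs, so they give no background for this gene.

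In the other classes Ikzf3 did not pass the test between genotypes. Hivep3-/- replicates held 151 and 123 CPM in iNKT1-like cells, below the 173 and 179 CPM of C57BL/6, a difference of -0.44 (SE 0.128, p 0.0100 unadjusted, adjusted p 0.303). In cycling-like cells they held 82.3 and 58.0 CPM (-0.10, SE 0.186), in iNKT2-like cells 88.5 and 84.0 CPM (-0.08, SE 0.129) and in iNKT17-like cells 293 and 362 CPM (-0.06, SE 0.194), all overlapping the C57BL/6 libraries. Over all cells the difference was -0.01 (SE 0.159), from 115 and 137 CPM in C57BL/6 and 151 and 118 CPM in Hivep3-/-. These last 4 small negative values changed sign without TMM scaling.

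The genotype difference of Ikzf3 in stage 0-like cells exceeded that in iNKT1-like cells by 1.45 (SE 0.219, adjusted p 0.000259), in a comparison that called 2.41% of genes and 2 of the 5 members, Ikzf3 and Ikzf1. It was called in all of 10 alternatives, from 1.18 to 1.98. Within Hivep3-/- mice the stage 0-like level of Ikzf3 was higher than the mean of the other 4 classes by 0.77 (SE 0.113, adjusted p 3.99e-06, with 47.6% of all genes called) and higher than the iNKT1-like level by 0.60 (SE 0.136, adjusted p 0.000609, with 58.1% called). The stage 0-like level was -0.57 relative to that of iNKT17-like cells (SE 0.152, adjusted p 0.00407, with 41.7% called), although the libraries of both classes overlapped. That call was lost in 2 of 10 alternatives, without TMM scaling (-0.27, adjusted p 0.157) and without Hivep3-/- replicate 2 (-0.18, adjusted p 0.491). Cluster 10 taken alone, at 795 and 606 CPM, was above the 293 and 362 CPM of the iNKT17-like cells, a comparison that was not tested.

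Ikzf1, which encodes Ikaros, was highest in precursors and lowest in iNKT17-like cells of C57BL/6 mice. In C57BL/6 replicates 1 and 2 it was at 167 and 159 CPM in stage 0-like cells, 113 and 117 CPM in iNKT1-like, 91.4 and 105 CPM in iNKT2-like, 89.1 and 113 CPM in cycling-like, and 68.1 and 65.9 CPM in iNKT17-like cells. The precursors lay above and the iNKT17-like cells below all the rest. Against the mean of the other 4 classes the stage 0-like level was higher by 0.52 (SE 0.102, adjusted p 0.000253), the iNKT1-like level was higher by 0.30 (SE 0.0769, adjusted p 0.00202), and the iNKT17-like level was lower by -0.80 (SE 0.121, adjusted p 1.71e-05). The first was 0.38 and not called without C57BL/6 replicate 1, and the second was not called without that library (0.27) or without TMM scaling (0.17). Stage 0-like and iNKT1-like cells did not differ beyond the spread in the scaled model (0.17, SE 0.112, adjusted p 0.214, with 48.7% of genes called).

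Between genotypes Ikzf1 was called in no class by edgeR or DESeq2. In stage 0-like cells it was at 250 and 231 CPM in Hivep3-/-, above the 167 and 159 CPM of C57BL/6, a difference of 0.43 (SE 0.154, adjusted p 0.441). Cluster 8 held 205 and 198 CPM against 119 and 128 CPM (0.59, SE 0.168, adjusted p 0.194), and cluster 10 held 389 and 342 CPM against 298 and 312 CPM. Both clusters were higher in the knockout without passing the test. In the other classes the differences ran from -0.22 in iNKT17-like to 0.00 in iNKT2-like cells, and over all cells Ikzf1 stood at 99.8 and 115 CPM in C57BL/6 and 127 and 111 CPM in Hivep3-/- (0.05, SE 0.138). The genotype difference in stage 0-like cells exceeded that in iNKT1-like cells by 0.57 (SE 0.145, adjusted p 0.0317), a call that was lost without C57BL/6 replicate 1 (0.65), C57BL/6 replicate 2 (0.55) or Hivep3-/- replicate 2 (0.53).

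Ikzf4, the gene for Eos, was rare, with 90 and 41 UMIs over all C57BL/6 cells and 22 and 19 UMIs over all Hivep3-/- cells. In C57BL/6 mice, cycling-like and iNKT2-like cells held the most, and the unnamed cluster 6 held 9, 1, 5 and 3 UMIs in the 4 libraries. C57BL/6 cycling-like cells held 30 and 24 UMIs (2.09 and 3.96 CPM) and iNKT2-like cells 44 and 10 UMIs (3.46 and 2.03 CPM), against 0 to 1 UMI in the stage 0-like and iNKT17-like classes and 3 to 4 UMIs in iNKT1-like cells. Relative to the mean of the other 4 classes, the cycling-like level was higher by 2.04 (SE 0.529, adjusted p 0.00254) and the iNKT2-like level by 2.30 (SE 0.525, adjusted p 0.00183). Each call was lost without 1 of the libraries, at 2.53 without C57BL/6 replicate 2 for the first and 2.39 without C57BL/6 replicate 1 for the second, and both fitted values depend on classes with hardly a count.

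In Hivep3-/- mice, Ikzf4 held 3 and 4 UMIs in cycling-like cells, at 1.15 and 0.797 CPM, and 9 and 11 UMIs in iNKT2-like cells, at 2.28 and 2.50 CPM. The cycling-like values were below those of C57BL/6, while the iNKT2-like values overlapped them. The log2 difference was -1.75 in cycling-like cells (SE 0.599, adjusted p 0.163), -0.36 in iNKT2-like cells (SE 0.443, adjusted p 0.825) and -1.62 over all cells (SE 0.358, adjusted p 0.121), and none passed the threshold. Over all cells it was called only when no filter on low counts was set (adjusted p 0.00509).

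Ikzf5, which encodes Pegasus, was low in all classes. Its level lay between 3.65 and 16.8 CPM in all 20 sums, with the lowest in iNKT17-like cells of Hivep3-/- replicate 1, a sum with 4 UMIs, and the highest in stage 0-like cells of the same library. Within C57BL/6 it was called in no class against the mean of the others. Within Hivep3-/- it was lower in iNKT17-like cells by -1.20 (SE 0.382, adjusted p 0.0215, with 27% of all genes called), a call that was lost without Hivep3-/- replicate 1 (-0.94, adjusted p 0.227) or replicate 2 (-1.65, adjusted p 0.0834). Between genotypes the differences were 0.05, 0.16, 0.12 and -0.04 in stage 0-like, cycling-like, iNKT2-like and iNKT1-like cells and 0.10 over all cells, with adjusted p values of 0.792 and above.

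Across the 20 sums, the levels of Ikzf1, Ikzf2 and Ikzf5 were positively correlated with each other, and those of Ikzf3 weakly and negatively with each. The usual correlation between genes is not given here, and Ikzf5 was low in all of these sums. On log2(CPM + 1), Pearson's r was 0.670 between Ikzf1 and Ikzf5, 0.611 between Ikzf1 and Ikzf2, and 0.499 between Ikzf2 and Ikzf5, but -0.132, -0.0640 and -0.286 between Ikzf3 and Ikzf1, Ikzf2 and Ikzf5, as a description of 20 sums that share 4 libraries and 5 classes. Among 5320 genes that averaged 20 CPM or more, the patterns most like that of Ikzf1 were those of Itm2a (0.943), Pitpnm2 (0.939), Tsnax (0.936) and Pip4k2a (0.931). Itm2a, an activation-linked membrane protein gene, also served as a marker of the stage 0-like class, with 1689 and 1910 CPM there and 6.12 and 1.83 CPM in iNKT17-like cells of C57BL/6 replicates 1 and 2. For Ikzf2 they were Gnl2 (0.919), Dgka (0.898), C2cd5 (0.897) and Osbpl9 (0.895), and Dgka, which encodes a diacylglycerol kinase that dampens receptor signals, stood at 61.0 and 65.8 CPM in C57BL/6 and 160.1 and 140.5 CPM in Hivep3-/- cycling-like cells. For Ikzf3 they were Ppt2 (0.923), Uhrf1bp1l (0.915), Usp9x (0.898) and Prrt1 (0.889), with Ppt2 at 76.5 and 89.6 CPM in iNKT17-like cells and 22.3 to 37.0 CPM in the other classes of C57BL/6 mice. Ikzf4 and Ikzf5 were too low for such a search.

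Partner and target genes of the family came from lists chosen with earlier results of these data known. Of 17 genes for the NuRD, Sin3 and CtBP corepressors, such as Chd4 and Hdac1, edgeR called 0 of the 16 tested in every class, with 0 to 1 at an unadjusted p under 0.05 and 0 called by DESeq2. Their median log2 difference in cycling-like cells was 0.06, beside 0.03 over all genes tested. Of the 5 genes of the cereblon ubiquitin ligase, which can be turned on Ikaros and Aiolos by thalidomide analogs, all were tested in every class and 0 were called by either tool, with 0 at an unadjusted p under 0.05.

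Of 21 genes known as bound or regulated by the family in lymphocytes, edgeR called few. In iNKT1-like cells 2 of 16 tested rose and 1 fell, while 0.497% of all genes rose and 25 of 10664 fell. Cd8a, a coreceptor gene, was at 1.06 and 1.58 CPM in C57BL/6 and 20.4 and 17.2 CPM in Hivep3-/- (3.76, SE 0.258, adjusted p 0.00159). Cd4 was at 27.1 and 24.5 CPM against 5.18 and 4.13 CPM (-2.54, SE 0.181, adjusted p 0.00168), and the gene for the cytokine Il2 was at 2.71 and 5.15 CPM against 20.7 and 22.8 CPM (2.41, SE 0.289, adjusted p 0.0153). All of these groups were far apart. In iNKT2-like cells, where 0.113% of all genes rose and 32 of 9705 fell, 1 of 13 rose and 1 fell. Il7r rose (419.6 and 381.9 CPM against 793.1 and 691.5 CPM), and Ifng fell (19.9 and 12.2 CPM against 1.52 and 2.28 CPM). Il7r was called in only 6 of 15 alternatives and Ifng in 10 of 14. In cycling-like cells 0 of 14 rose and 2 fell, Cd4 (-1.88) and Hes1 (-1.75), a Notch target called in 5 of 14 alternatives. Of all 10216 genes tested there, 237 rose and 220 fell. None of 11 was called in stage 0-like and none of 8 in iNKT17-like cells by edgeR or DESeq2, with 2 at an unadjusted p under 0.05 in each. The medians were -0.20, 0.00, -0.12, 0.26 and -0.05 in stage 0-like, cycling-like, iNKT2-like, iNKT17-like and iNKT1-like cells, beside medians of all genes from -0.00 to 0.03.

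The 16 genes of strong antigen receptor signal, a setting in which Helios is known, were tested in the same way. This list, too, was chosen with earlier results of these data known. Egr1, Egr2, Nr4a1 and Id3 of the list are described in the paper as higher in Hivep3-/- precursors. Shares and medians of all genes are therefore given beside the list as a description, and they are no test of an excess. In cycling-like cells 6 of 16 rose and 0 fell, with a median of 0.56 beside 0.03 over all genes, of which 2.32% rose. Itm2a, Id3, Cd69, Egr2 and Tox of this list were also among the stage 0 markers used to name the classes. The sum of those markers, given above, was higher in the same Hivep3-/- cells, so the list and the sum are not separate observations. Nr4a2, an early nuclear receptor gene, was at 2.71 and 3.13 CPM in C57BL/6 and 10.3 and 18.5 CPM in Hivep3-/- (2.22, SE 0.362, adjusted p 0.0158). The activation gene Cd69 was at 47.1 and 29.0 CPM against 90.8 and 123.7 CPM (1.33, SE 0.255, adjusted p 0.0283), and Itm2a was at 43.2 and 44.0 CPM against 91.2 and 155.2 CPM (1.36, SE 0.2498, adjusted p 0.0242). In each of these both knockout libraries lay above both controls. Ubash3b (1.69), Id3 (0.98), an inhibitor of E proteins, and Pdcd1 (0.59), the gene for PD-1, were the others, of which Id3 was called in 10 and Pdcd1 in 8 of 15 alternatives.

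In stage 0-like cells 1 of the 16 receptor signal genes rose, as did 0.0455% of all genes. Ubash3b, which encodes a phosphatase that restrains receptor signals, was at 12.1 and 10.9 CPM against 81.5 and 73.0 CPM (2.60, SE 0.255, adjusted p 0.00128). In iNKT2-like cells 0 of 16 were called by edgeR and 1 by DESeq2, which called 97 of all 9705 genes tested. At an unadjusted p under 0.05 in edgeR were 6 of the 16 and 980 of all genes. Above 0 lay 15 of the 16 and 53.5% of all genes, and the median was 0.46 beside 0.03 over all genes. Of 14 tested in iNKT17-like cells 0 were called by edgeR and 1 by DESeq2, which called 7 of all 7609 genes. At an unadjusted p under 0.05 in edgeR were 3 of the 14 and 426 of all genes. The median was -0.33 beside 0.0026 over all genes. Likewise 0 of 16 were called by edgeR in iNKT1-like cells and 1 by DESeq2, which called 166 of all 10664 genes. At an unadjusted p under 0.05 in edgeR were 5 of the 16 and 895 of all genes. The median was -0.26 beside -0.00064 over all genes.

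**Figure D5:**
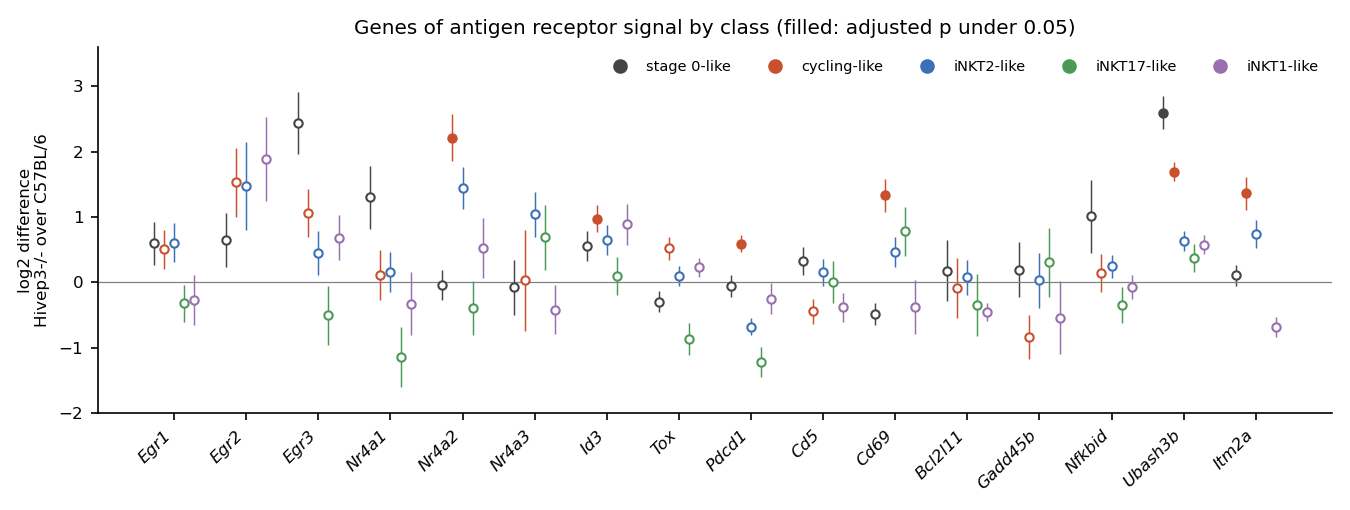
Log2 difference of Hivep3-/- over C57BL/6 (y axis, bars are standard errors of the fit) for 16 genes of antigen receptor signal (x axis) in the 5 classes, shown by colour. Filled points passed an adjusted p of 0.05, namely 6 genes in cycling-like cells and Ubash3b in stage 0-like cells; a missing point was not tested.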

How the data were processed

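The values are UMI counts, deposited as 1 matrix of genes by barcodes for each library; the authors ran Cell Ranger (version 3.1.0 in the submitters' processing notes, which also name Seurat 3.1.4) on the mm10 mouse genome, with an annotation release that is not stated in what was read. Each library is a separate mouse. The members and gene lists were chosen with earlier results of these data known.

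Cells with 500 to under 4100 genes, at least 1000 UMIs and under 6% mitochondrial UMIs were kept. They were clustered with Seurat 5.3.0 in R 4.3.3 (irlba 2.3.5.1, RANN 2.6.2) after correction between libraries (2000 variable genes, 30 components, 20 neighbours, resolution 0.8). The 5 family genes, 26 genes the study discusses and 6 sex-linked genes were left out of clustering. A class name needed at least 3 of its markers among a cluster's 20 leading genes or, failing that, its 50 leading genes (clusters 4, 5 and 15), with more than any other class and 1 or more among the first 10. That scoring rule was chosen with the clusters in view, and these rebuilt names can themselves cause differences from the study. Scrublet in scanpy 1.11.5 (Python 3.11.15) called 0 to 5 doublets per library, which means that it did not work, so none were removed; an alternative removed the 5% with the highest scores.

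Counts were summed per library and class. Genotypes were compared within each class, or over all cells, with edgeR 4.0.16 (filterByExpr, TMM scaling, quasi-likelihood test, Benjamini-Hochberg adjustment over all genes tested, threshold 0.05). Classes and the genotype by class interaction were fitted over all 20 sums with mouse as a block. Standard errors are the log2 difference divided by the root of edgeR's F statistic. DESeq2 1.42.0 was an alternative. Adjusted p values in the text are edgeR's unless DESeq2 is named. Shares were tested by exact permutation over libraries (scipy 1.17.1). The scripts were tested on simulated counts. Per-cluster sums, their fits with a library left out, pairs of classes, shares in clusters 6, 8 and 10, and the class model without TMM scaling were added after the data were seen.

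Named genes were all members, Hivep3, the 4 genes most correlated with each member above 20 CPM, up to 6 called genes per list by smallest adjusted p, and defining markers of other cells. Ubash3b and Cd4 in cycling-like cells were named beside their listed class. Protein sequences planned for the family were not used here, and coding bases from GENCODE vM21 transcripts took their place.

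The replicate numbers did not pair the mice. Deviations of the same-numbered libraries from their group means had r = 0.000900 over 12291 genes. The numbers were used as a block only in the alternative named replicate block, which rests on an arbitrary pairing.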

Additional observations from a re-analysis of the deposited data

Results flagged for a closer look

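For 3 family genes, an interaction test in the model over 20 sums called a genotype difference that varied with the class of iNKT cells. The cycling-like comparison against iNKT1-like cells called 11.3% of all genes tested, and the stage 0-like comparison called 2.41%. For Ikzf2 the log2 difference of Hivep3-/- over C57BL/6 was larger in cycling-like than in iNKT1-like cells by 1.44 (SE 0.149, adjusted p 4.97e-07 in edgeR). For Ikzf3 the difference in stage 0-like cells exceeded that in iNKT1-like cells by 1.45 (SE 0.219, adjusted p 0.000259). For Ikzf1 the same contrast gave 0.57 (SE 0.145, adjusted p 0.0317), and it was not called when C57BL/6 replicate 1, C57BL/6 replicate 2 or Hivep3-/- replicate 2 was left out. Ikzf3 and Ikzf1 had opposite signs in the classes set against each other, with 1.05 and 0.43 in stage 0-like and -0.44 and -0.17 in iNKT1-like cells, and none of these 4 values was called on its own.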

How the results depend on the processing

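Over 80 results and 886 alternative fits, 784 were counted as unchanged. For a single gene this meant the same direction and side of the threshold, and for a share of cells the same direction. For a number of genes called it meant an equal or close number. For the other fits the cause was not tested unless stated. With 2 mice per genotype, few calls were stable at the threshold, and a left-out library leaves 1 mouse in its genotype, assumed to vary like the rest.

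The number of family genes called between genotypes in stage 0-like cells (0) was 1 with DESeq2, 2 with no filter on low counts, 1 with the replicate block, and 0 to 2 when 1 library was left out. In iNKT2-like cells (1) it was 0 with a minimum mean of 20 CPM, 0 without correction between libraries and 0 with the other cell filter. In iNKT1-like cells (0) it was 1 with DESeq2, 1 without TMM scaling, 1 with no filter, 1 with the replicate block, and 0 to 1 with a library left out. Over all cells (1) it was 2 with no filter, 0 with the 20 CPM minimum, and 0 to 1 with a library left out. Within C57BL/6, the iNKT2-like count (2) ran from 0 to 2, and the stage 0-like interaction count (2) from 1 to 2, with a library left out; the iNKT2-like interaction count (0) was 1 at resolution 0.4.

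The replicate block, for numbers that did not pair the mice, gave 87, 825, 160, 43, 200 and 212 genes called in stage 0-like, cycling-like, iNKT2-like, iNKT17-like, iNKT1-like and all cells, against 31, 457, 43, 8, 78 and 94 without it. Across all settings those counts ran from 13 to 294, 152 to 1131, 8 to 419, 5 to 95, 17 to 461 and 12 to 965.

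Without TMM scaling the median of all genes moved from 0.02 to 0.14, 0.03 to 0.18 and 0.03 to 0.12 in stage 0-like, cycling-like and all cells, and the cycling-like calls split 312 higher to 145 lower in place of 237 to 220, with iNKT1-like calls at 50 to 13 in place of 53 to 25. Directions that turned were all of uncalled values. Without TMM scaling these were Ikzf1 (0.08) and Ikzf3 (0.06) in cycling-like, Ikzf3 in iNKT2-like (0.01) and iNKT17-like (0.01), Ikzf5 in iNKT1-like (0.04), Ikzf3 over all cells (0.09) and Ikzf1 in iNKT2-like against other C57BL/6 classes (-0.12). Ikzf3 over all cells was 0.03 with the 20 CPM minimum and 0.02 with doublet scores removed, Ikzf5 was -0.11 in iNKT2-like cells with the other cell filter and 0.03 in iNKT1-like cells at resolution 0.4, and Ikzf2 in iNKT2-like against other classes was 0.04 without correction between libraries. The Ikzf3 share difference was -0.501 points in cycling-like and -2.73 points in iNKT17-like cells at 1000 UMIs, and 4.28 points in iNKT1-like cells unthinned.

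With 1 library left out, differences ran, for Ikzf5, from -0.08 to 0.28 in stage 0-like, -0.11 to 0.33 in cycling-like, -0.18 to 0.35 in iNKT2-like, -0.13 to 0.06 in iNKT1-like and -0.04 to 0.18 in all cells; for Ikzf1, from -0.25 to 0.10 in cycling-like, -0.56 to 0.03 in iNKT17-like and -0.05 to 0.16 in all cells; for Ikzf3, from -0.33 to 0.10 in cycling-like, -0.28 to 0.15 in iNKT17-like and -0.17 to 0.13 in all cells; for Ikzf2, from -0.04 to 0.37 in iNKT17-like; and for Ikzf4, from -0.61 to 0.14 in iNKT2-like. Within C57BL/6, Ikzf1 ran from -0.19 to 0.11 in cycling-like and -0.02 to 0.11 in iNKT2-like, and Ikzf2 from -0.06 to 0.02 in iNKT2-like and -0.45 to 0.14 in iNKT17-like cells. Interactions ran from -0.14 to 0.29 (Ikzf2, stage 0-like), -0.08 to 0.23 (Ikzf1, cycling-like) and -0.34 to 0.13 (Ikzf1, iNKT17-like), and Ikzf3 shares from -0.197 to 7.40 points in cycling-like and -1.76 to 3.35 points in iNKT2-like cells.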

Other observations

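Within Hivep3-/- mice the order of Ikzf2 levels by class was not that of C57BL/6 mice. iNKT2-like cells, at 153 and 192 CPM in replicates 1 and 2, exceeded iNKT17-like cells, at 85.8 and 74.8 CPM, by a log2 difference of 1.18 (SE 0.141, adjusted p 9.08e-07 in edgeR), a pair that did not differ beyond the spread in C57BL/6 mice. iNKT17-like and iNKT1-like cells, by contrast, were close in Hivep3-/- mice (-0.16, SE 0.143, adjusted p 0.509). The difference between genotypes in these pairwise contrasts was tested only against iNKT1-like cells, where it was not called for iNKT2-like or iNKT17-like cells.

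In cluster 6, where Ikzf2 rose, Ikzf3 stood at 86.5 and 55.3 CPM in C57BL/6 and 83.2 and 74.9 CPM in Hivep3-/- replicates 1 and 2, and the groups overlapped (-0.04, SE 0.212). In cluster 3, with Izumo1r, Cxcr3 and Maf among its leading genes, Ikzf2 differed by 0.89 (SE 0.176, adjusted p 0.116) and Ikzf3 by -0.48 (SE 0.184, adjusted p 0.628), and neither was called.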
